A study of Mus musculus with 6 samples.

Results

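The miR-379/410 cluster is a run of miRNA hairpins in the imprinted Dlk1-Dio3 domain, a region whose non-coding RNAs are made from the maternal copy. Its members were taken by name: of 1393 annotated mouse miRNAs in the right SN data, 70 carried 1 of 37 cluster names, and 69 were left once rows of identical values were kept once. The identical pair was miR-299a-5p and miR-299b-5p, from hairpins that overlap on opposite strands, and miR-299a-3p and miR-299b-3p were almost identical too, so their reads cannot be told apart. The 70 IDs come from 36 hairpins, 34 of them with both arms listed, where the 5p and 3p arms are the pieces cut from the left and right side of the hairpin. The rule uses names alone and no measured value, although it was written with earlier results of these data known.

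The cluster is best known from brain, where it is transcribed as long precursors that are cut into many miRNAs. miRNAs pair with messenger RNAs through the seed near their 5′ end and lower their stability or translation. In rat neurons its transcription is raised by activity through the factor Mef2, miR-134 limits the size of dendritic spines by holding back the kinase Limk1, and miR-134, miR-329 and miR-381 are needed for activity-dependent growth of dendrites. In mice, loss of the cluster has been linked to changes in anxiety-related and social behaviour.

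Small RNA from the right SN was measured in 6 libraries, 3 of the hα-syn(A53T) + Ang-(1-7) group and 3 of the hα-syn(A53T) group. By the study's methods, all mice were male C57BL/6J animals that received an AAV with human α-synuclein carrying the A53T change in the right SNpc at 8 weeks of age, while the sample labels call the strain an overexpressing one. One group then received Ang-(1-7), a peptide of the renin-angiotensin system, above the nigra for 4 weeks (1.1 nmol each hour in a volume of 0.25 μL) by osmotic pump, and the other received aCSF, the artificial cerebrospinal fluid, at the same rate. Where values of both groups are set side by side below, those after Ang-(1-7) come first, then those of the aCSF group, with libraries in the order of their replicate numbers. Whether a library is 1 mouse or a pool is not stated, so the spread behind each p-value is that of libraries and may be technical in origin. Both groups carry the α-synuclein vector, and libraries of control mice that lack the vector were not analysed here.

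Values are normalized counts, the reads of a miRNA divided by a size factor of the library. Reads were worked out by taking the smallest value of a library as 1 read. On that basis the libraries held 14796519 to 17088611 reads of annotated miRNAs, with rows of identical values each counted. From 1067 to 1132 miRNAs were detected. The tissue held the neuronal miR-9-5p, miR-124-3p and miR-128-3p in every library. Some lists that mark other cells differed between the groups. The summed level of 6 epithelial and pituitary miRNAs ranged from 161127 to 478502 normalized counts in the Ang-(1-7) libraries and from 3645 to 9055 in the others, with 5 of the 6 higher by the test used below. Summed skeletal muscle miRNAs ranged from 14945 to 21833 against 42091 to 86348, with 4 of 4 lower. Among 4 miRNAs of the Hox clusters, known from hindbrain and spinal cord, 1 was lower (miR-196a-5p, at 0 in all 3 Ang-(1-7) libraries), and their summed level ranged from 1373 to 31727 against 12670 to 74596. Of 3 red blood cell miRNAs miR-486a-5p was lower, while miR-451a, at 320 ± 158 against 161 ± 6.12 normalized counts (SD, n = 3), and miR-144-3p did not pass. Of 2 endothelial and 3 leukocyte miRNAs 0 passed, also at an unadjusted p under 0.05, and their sums overlapped between the groups.

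The mature sequences below come from RefSeq, on the build GRCm38.p6, and 66 of the 70 IDs had one, of 18 to 25 bases. On that build 34 hairpins were placed on chr12:109709060-109743795, a stretch of 34.736 kb, 33 on the plus strand and 1, miR-299b, on the minus strand. Of these, 22 lie between annotated genes, and 12 lie within the long non-coding RNA Mirg (109729764 to 109749460), 4 of them in its introns and 8 overlapping an exon of some transcript. The submitters' notes name the build mm9, so only sequence and annotation were taken from GRCm38.p6. The sequences shown first are those of the 4 members that passed the test between the groups, the 2 most abundant members, the first and last miRNAs that name the cluster, and the member with the lowest fold change. Capitals mark the seed, bases 2 to 8 from the 5′ end, which pairs with target messenger RNAs.
miR-409-3p: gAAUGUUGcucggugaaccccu
miR-409-5p: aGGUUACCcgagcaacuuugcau
miR-329-5p: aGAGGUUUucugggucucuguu
miR-154-3p: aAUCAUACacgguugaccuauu
miR-381-3p: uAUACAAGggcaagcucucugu
miR-300-3p: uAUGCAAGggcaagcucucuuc
miR-379-5p: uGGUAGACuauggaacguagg
miR-410-3p: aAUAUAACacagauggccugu
miR-382-5p: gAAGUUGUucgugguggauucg
The 4 members that passed have 4 different seeds. miR-381-3p and miR-300-3p have equal lengths and differ by A4G, G21U and U22C, counted from the 5′ end with the base of miR-381-3p first, and the difference at position 4 gives them different seeds.

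Seeds were shared by few members. miR-379-3p and miR-411-3p share AUGUAAC, miR-379-5p and miR-1193-5p share GGUAGAC, miR-376b-5p and miR-376c-5p share UGGAUAU, miR-494-5p and miR-410-5p share GGUUGUC, and the near-identical miR-299a-3p and miR-299b-3p share AUGUGGG. Some member seeds are also found in miRNAs from outside the cluster. Examples are that of miR-410-3p in miR-344d-3p and miR-344e-3p, and that of miR-329-3p in miR-362-3p. Others are that of miR-495-3p in miR-1192 and miR-12200-5p, that of miR-411-5p in miR-7229-5p, and that of miR-1193-3p in miR-370-5p. Words of 7 bases were also searched, on the mature strand alone. A word may stand at any place, so it has more chances of a match than a seed of fixed place. GGUCCAC stands in 5 of the 66 members with a sequence and in 0 of 1613 other mouse miRNAs, and it is in capitals in the next lines, which show how far these 3p arms resemble each other. The hairpins of miR-379, miR-411, miR-380 and miR-758 lie near the start of the cluster and that of miR-412 near its end.
miR-379-3p: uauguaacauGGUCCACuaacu
miR-411-3p: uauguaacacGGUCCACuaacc
miR-380-3p: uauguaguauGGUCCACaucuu
miR-758-3p: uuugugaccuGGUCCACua
miR-412-3p: uucaccuGGUCCACuagccg
The word UACACGG stands in 4 members and in 0 of the 1613 others, and it overlaps the seed in each. One of the 4 is miR-154-3p, which passed the test between the groups.
miR-154-3p: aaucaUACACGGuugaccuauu
miR-323-3p: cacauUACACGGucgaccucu
miR-485-3p: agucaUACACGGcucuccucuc
miR-494-3p: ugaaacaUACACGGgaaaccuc
The 5p arms of miR-377, miR-381, miR-495, miR-496a and miR-543 share GUUGCCC, again in 0 of the 1613 others. The words shown were picked from the members' own sequences. Among other words found in 4 members, ACAUGGU stands in 8 of the 1613 others, GUCCACU in 3, UGGUCCA in 1 and UCCACUA in 0. These matches describe the sequences and say nothing of targets.

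As a whole, the cluster took a larger share of the annotated miRNA counts in each Ang-(1-7) library than in any aCSF library. The shares were 4.13%, 4.67% and 3.90% in that group and 3.28%, 3.00% and 3.07% in the aCSF group, with means of 4.23% ± 0.397 and 3.12% ± 0.146 (SD, n = 3). Summed over members, the level was 681849 ± 122212 normalized counts against 496625 ± 34300 (SD, n = 3). Much of that difference was miR-381-3p. Without it the sums were 374468 ± 6411 against 326650 ± 51619 (SD, n = 3), and the groups overlapped, since hα-syn(A53T) replicate 3 stood at 386220 and the Ang-(1-7) libraries between 367814 and 380604. No test was run on these sums. In bulk tissue, more cells that make the cluster and more of it per cell cannot be told apart.

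**Figure D1:**
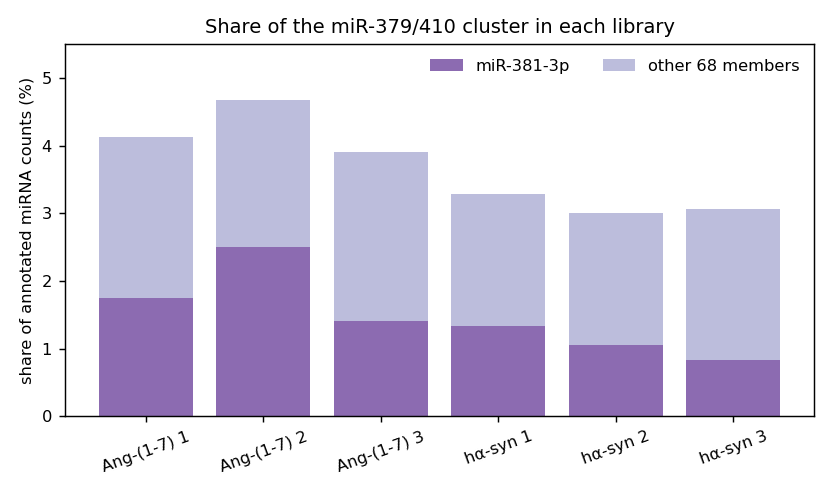
Share of annotated miRNA counts (%, vertical axis) taken by the miR-379/410 cluster in each of the 6 libraries, with miR-381-3p in dark and the other 68 members in pale. The 3 Ang-(1-7) bars reach 3.90% to 4.67% and the 3 hα-syn(A53T) bars 3.00% to 3.28%.

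For single members the test was limma on log2(normalized count + 1), fitted over the 1065 annotated miRNAs that reached 1 in 3 or more libraries, with Benjamini-Hochberg adjusted p-values over all of them. The log2 fold change (log2FC, positive where Ang-(1-7) is higher) is drawn towards 0 by the added 1 for miRNAs with few reads. Where a library holds 0 reads it can still come out large, as for miR-679-3p below. Of the 69 members 68 were tested, and miR-494-5p was not, with a value above 0 in only 2 libraries. At an adjusted p under 0.05 from limma, 4 members were higher with Ang-(1-7), 0 were lower and 64 did not pass, where 5.54% of all miRNAs tested were higher and 4.04% lower. The share of members called higher is therefore close to that of all miRNAs. At an unadjusted p under 0.05, 21 members were higher, or 30.9%, against 11.7% of all miRNAs, and 1 was lower. The study's methods set thresholds of a 2-fold difference (log2FC of 1 in size) and a p under 0.0001, here read as unadjusted. On the limma fit 0 members passed them and 2.25% of all miRNAs did. The study applied them to DESeq2, so these counts do not say which members passed in its own comparison. With limma voom on whole reads, 4 members were higher and 0 lower.

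The fold changes of the members lay mostly to one side. Of the 68 tested, 53 had a log2FC above 0, or 77.9%, against 47.9% of all miRNAs, and the median was 0.34 against -0.04. Members ran from -0.66 to 1.27. For 25 members, or 36.8%, all 3 Ang-(1-7) libraries were above all 3 others, which held for 14.2% of all miRNAs, and for 1 member, miR-382-5p, all 3 were below, against 14% of all miRNAs. Since members of 1 precursor and arms of 1 hairpin share their source, they are not independent. By library, the median member stood 0.18, 0.30 and 0.08 above its own mean over the 6 libraries on the log2 scale in the Ang-(1-7) group, and at -0.16, -0.28 and -0.08 in the other. Replicate 3 of each group was nearest to 0.

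**Figure D2:**
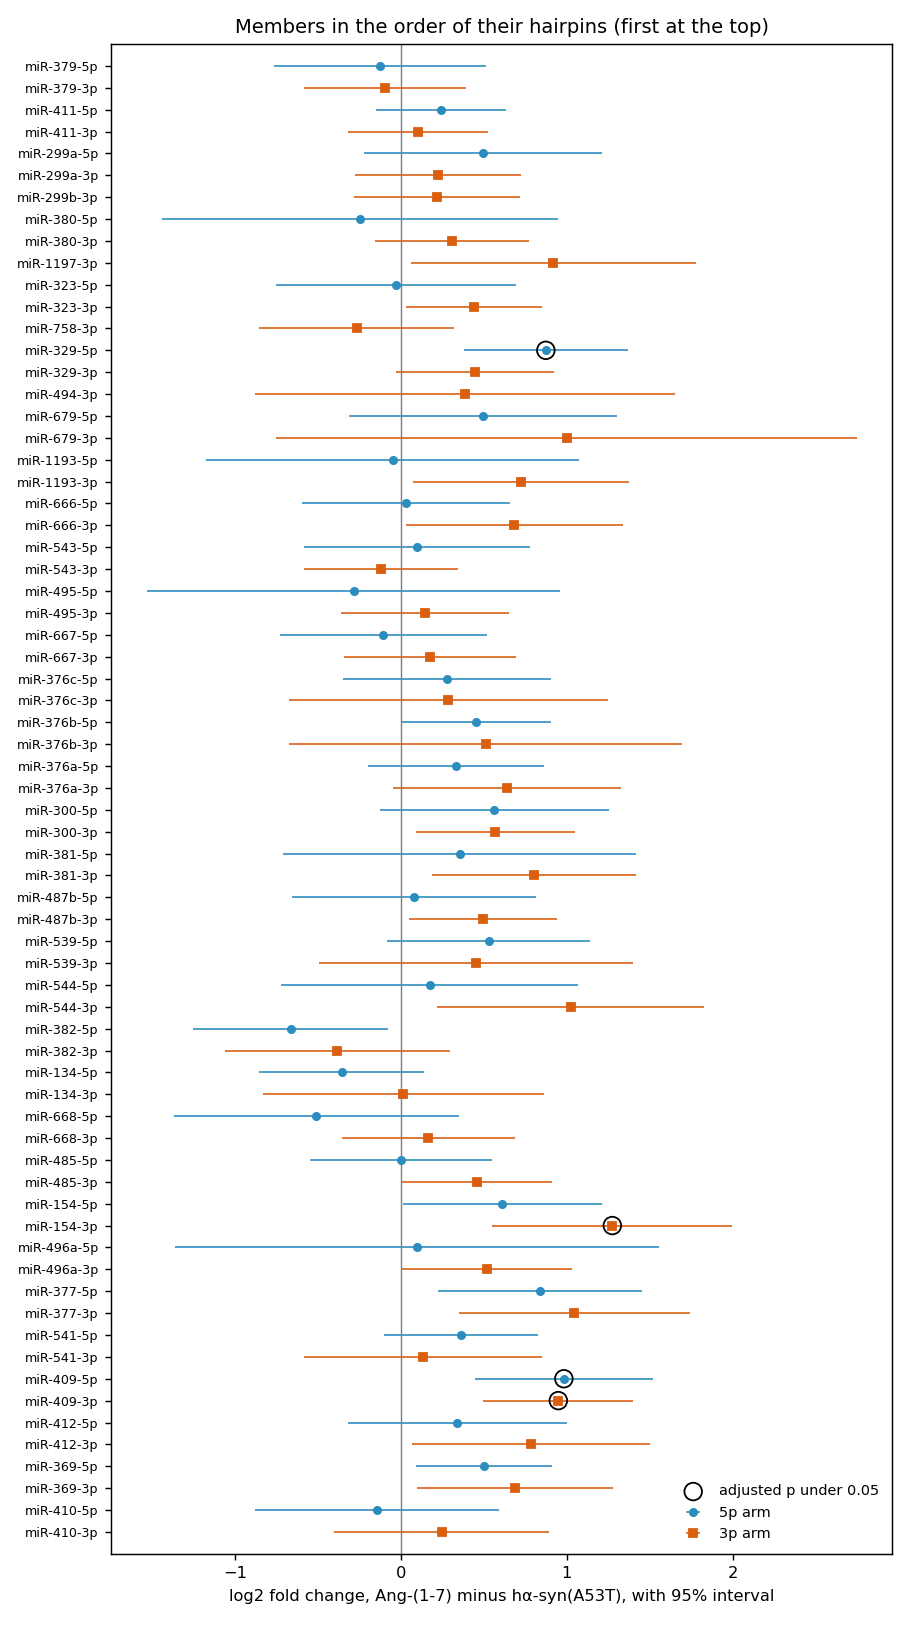
log2 fold change, Ang-(1-7) minus hα-syn(A53T) (horizontal axis), with its 95% interval for the 68 members tested, in the order of their hairpins from miR-379 to miR-410, with circles for 5p arms and squares for 3p arms. Open rings mark the 4 members with an adjusted p under 0.05, and 53 of the 68 points lie right of 0.

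Both arms of miR-409, near the far end of the cluster in an intron of Mirg, were among the 4 that rose. miR-409-3p is known in mouse to shape corticospinal neurons through the transcription cofactor Lmo4. Its normalized counts were 14749, 10926 and 11516 after Ang-(1-7) against 6227, 5855 and 7073. Every treated library stood above every aCSF library. Means were 12397 ± 2058 and 6385 ± 624 (SD, n = 3), a ratio of 1.94, with a log2FC of 0.95 (SE 0.20, 95% CI 0.50 to 1.40, limma adjusted p = 0.0205).

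miR-409-5p, cut from the other side of the same hairpin, stood at 8151, 11206 and 7801 normalized counts after Ang-(1-7) against 4432, 3629 and 5744. The groups did not overlap, and replicate 2 was the highest treated and the lowest untreated library. The log2FC was 0.98 (SE 0.24, 95% CI 0.44 to 1.52, limma adjusted p = 0.0358). The ratio of miR-409-3p to miR-409-5p was 1.42 ± 0.420 against 1.42 ± 0.191 (SD, n = 3).

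miR-329-5p is the more abundant arm of miR-329, whose 3p arm carries the seed studied in rat dendrites. It stood at 9608, 13097 and 8648 normalized counts after Ang-(1-7) against 6078, 4876 and 5968. No library of the groups overlapped, and Ang-(1-7) replicate 2 was the highest. Its log2FC was 0.87 (SE 0.22, 95% CI 0.38 to 1.37, limma adjusted p = 0.0386). The 3p arm, named after its values were seen, stood at 2212 ± 393 against 1606 ± 76.2 normalized counts (SD, n = 3) and did not pass, with a log2FC of 0.45 and an adjusted p of 0.245 from limma.

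The log2FC furthest above 0 was that of miR-154-3p, an arm of few reads whose hairpin lies in an intron of Mirg. It stood at 354, 662 and 321 normalized counts after Ang-(1-7) against 202, 136.2 and 191. Ang-(1-7) replicate 2 stood far above the other treated libraries, and the groups did not overlap. The log2FC was 1.27 (SE 0.32, 95% CI 0.55 to 2.00, limma adjusted p = 0.0386).

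**Figure D3:**
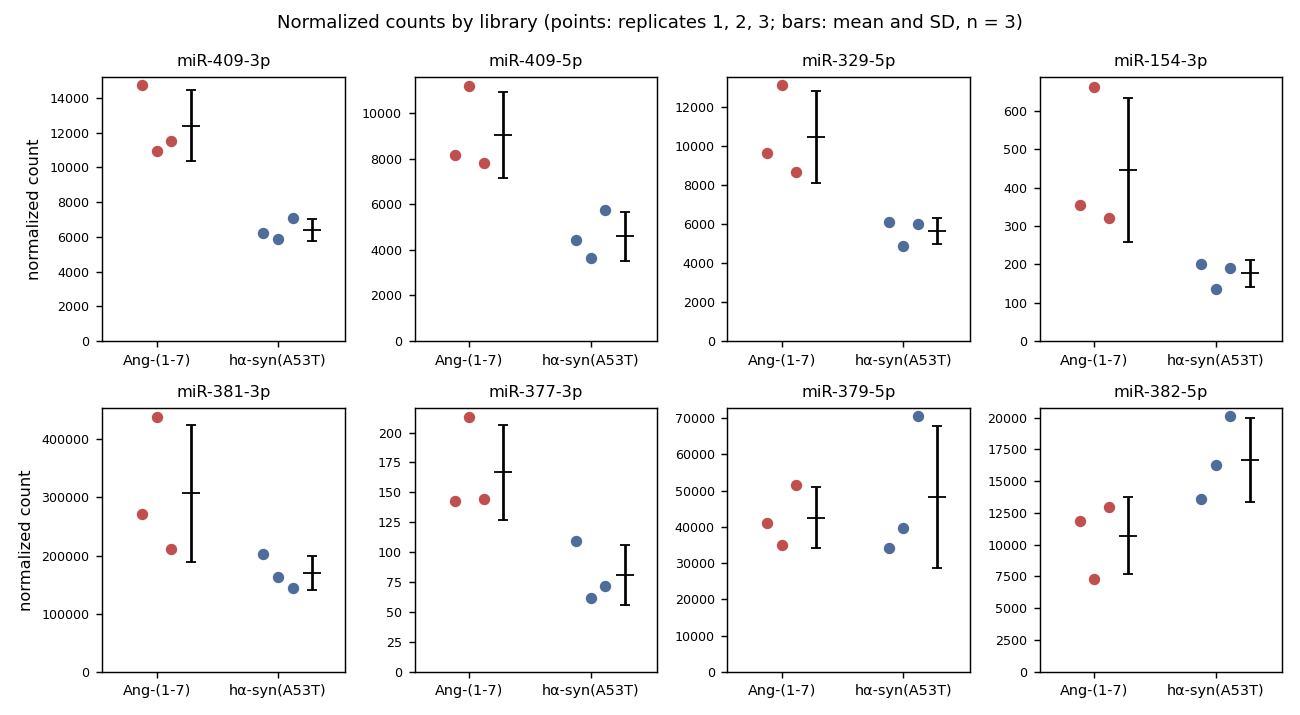
Normalized counts (vertical axes, each from 0) of 8 members in each library, with red points for the 3 Ang-(1-7) and blue points for the 3 hα-syn(A53T) libraries in the order of their replicate numbers, and bars for the mean and SD. The top row holds the 4 members that passed, whose groups do not overlap, and in the bottom row miR-379-5p overlaps while miR-382-5p lies lower with Ang-(1-7).

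These 4 calls were not stable to the choice of libraries. None of the 68 passed (0) in the fits that left out replicate 1 of either group or hα-syn(A53T) replicate 2. Without Ang-(1-7) replicate 2 only miR-409-3p passed, without hα-syn(A53T) replicate 3 only the arms of miR-409, and without Ang-(1-7) replicate 3 there were 6 members, the added ones being miR-381-3p and miR-544-3p. Over these left-out fits the adjusted p of miR-409-3p from limma ran from 0.0225 to 0.13. When the mean log2 level of the miR-10 family (miR-10a-5p, miR-10b-5p), lowest in Ang-(1-7) replicates 1 and 2, was added to the fit, 0 members passed (3 at an unadjusted p under 0.05), and the log2FCs of miR-409-3p, miR-409-5p, miR-154-3p and miR-329-5p were 0.91, 0.78, 0.77 and 0.57. The miR-10 level itself differed between the groups, with log2FCs of -2.78 for miR-10a-5p and -3.31 for miR-10b-5p. This fit therefore cannot separate it from the treatment, and the loss of calls says nothing of a cause. The part of other cells in these differences was not tested.

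The most abundant member was miR-381-3p, which rat neurons need for activity-dependent dendrite growth. It held 42.5%, 53.6% and 36.0% of the cluster's counts after Ang-(1-7) against 40.6%, 35.4% and 27.2%. Its normalized counts were 271938, 438941 and 211264 against 202121, 163414 and 144390. The groups did not overlap, but Ang-(1-7) replicate 3 was close to hα-syn(A53T) replicate 1. The log2FC was 0.80 (SE 0.28, 95% CI 0.18 to 1.42) and did not pass, with an adjusted p of 0.117 from limma. miR-300-3p, its near relative in sequence, stood at 54863, 78375 and 50254 normalized counts against 43410, 37739 and 40295, with a log2FC of 0.57 (SE 0.21, limma adjusted p = 0.148). Reads of these relatives differ at 3 bases, of which those at positions 21 and 22 are the last. A read that lacks these ends differs only at position 4. The sources used here do not say how the authors assigned reads with mismatches. The ratio of miR-381-3p to miR-300-3p was 4.96, 5.60 and 4.20 after Ang-(1-7) against 4.66, 4.33 and 3.58, so it overlapped between the groups.

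Next in abundance came miR-379-5p and miR-411-5p, the 5p arms of the first hairpins, whose sequences differ at 7 bases. Among these differences, G2A (the base of miR-379-5p first) lies in the seed, so the seeds differ. miR-379-5p stood at 41077, 34869 and 51513 normalized counts after Ang-(1-7) against 34093, 39792 and 70671. The groups overlapped fully, replicate 3 was the highest in each, and its log2FC was -0.13 (95% CI -0.77 to 0.51, limma adjusted p = 0.836). miR-411-5p was steadier, at 46135, 47789 and 42535 against 40630, 36190 and 38496 normalized counts. Its groups did not overlap, yet the log2FC was 0.24 (95% CI -0.15 to 0.63, limma adjusted p = 0.454).

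The other arm of the first hairpin, miR-379-3p, stood at 2112 ± 113 normalized counts against 2289 ± 482 (SD, n = 3), with a log2FC of -0.10. At the far end, miR-410-3p stood at 8964, 12926 and 13730 normalized counts after Ang-(1-7) against 7712, 8229 and 15015, overlapping, with a log2FC of 0.25 (95% CI -0.40 to 0.90). Its partner miR-410-5p had few reads, 30.7 ± 6.61 against 33.9 ± 6.86 normalized counts (SD, n = 3). None of these arms of the first and last hairpins passed the test, and their groups overlapped.

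Of the remaining abundant members, miR-541-5p stood at 29985 ± 3070.6 normalized counts against 23547 ± 4848 (SD, n = 3), with an overlap and a log2FC of 0.36 (limma adjusted p = 0.327). miR-543-3p, which with miR-369-3p and miR-496 is known to hold back N-cadherin in mouse neurogenesis, stood at 20707 ± 3641 against 22406 ± 2869 normalized counts (SD, n = 3), a log2FC of -0.12. For miR-369-3p the counts were 8854, 13958 and 8120 against 6126, 5012 and 7833. These did not overlap, and the log2FC of 0.69 did not pass (SE 0.26, limma adjusted p = 0.155). miR-495-3p stood at 10652 ± 2611 against 9509 ± 1240 normalized counts (SD, n = 3), with a log2FC of 0.15. The abundant members were thus not all on one side of 0. Of the 10 most abundant, 6 were above 0, and their median log2FC was 0.19.

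Among the 5 members with the largest log2FCs, 3 did not pass, and these had few reads. miR-377-3p stood at 143, 213 and 144 normalized counts against 110, 62.1 and 71.8, with no overlap, a log2FC of 1.04 and an adjusted p of 0.0668 from limma. miR-544-3p stood at 49.3 ± 18.2 against 22.6 ± 1.88 normalized counts (SD, n = 3), a log2FC of 1.02 (limma adjusted p = 0.124). miR-679-3p, at 7.08 ± 2.29 against 4.59 ± 4.19 normalized counts (SD, n = 3), had a log2FC of 1.00 with a 95% CI of -0.75 to 2.75, and hα-syn(A53T) replicate 3 held 0 reads of it. Without that library its log2FC was 0.01, and with pseudocounts of 5 and 0.1 in place of 1 it was 0.43 and 2.04.

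Members with fold changes below 0 were fewer, and the arms of miR-382 stood lowest among the abundant ones. miR-382-5p stood at 11862, 7263 and 12977 normalized counts after Ang-(1-7) against 13581, 16245 and 20108. It was the only member whose Ang-(1-7) libraries were all below the others, although Ang-(1-7) replicate 3 and hα-syn(A53T) replicate 1 were close. The log2FC was -0.66 (SE 0.26, 95% CI -1.25 to -0.08) and did not pass, with an adjusted p of 0.169 from limma. Its other arm, miR-382-3p, stood at 17285, 21828 and 24918 against 18027, 27234 and 42493 normalized counts, overlapping, with a log2FC of -0.38.

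miR-134-5p, the arm that acts on Limk1 in rat dendrites, comes from the next hairpin. It stood at 3434, 2706 and 4150 normalized counts after Ang-(1-7) against 3801, 4629 and 4600. The highest treated library was above the lowest untreated one, and the log2FC of -0.36 (95% CI -0.85 to 0.14, limma adjusted p = 0.384) did not pass. miR-668-5p and miR-495-5p, with log2FCs of -0.51 and -0.29, had few reads: 12.3 ± 4.99 against 17.1 ± 0.772 and 4.44 ± 2.29 against 5.60 ± 3.13 normalized counts (SD, n = 3).

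The place of a hairpin in the cluster told little about its fold change. Across the 68 members, which share precursors and libraries, the log2FC had a Spearman rho of 0.21 and a Pearson r of 0.18 with the distance from the first hairpin, and a rho of -0.02 with the mean level. The 44 members tested before Mirg had a median log2FC of 0.32, with 1 call and 14 whose Ang-(1-7) libraries were all above the others. The 24 within Mirg had a median of 0.35, with 3 calls and 11 with all Ang-(1-7) libraries above. Over all miRNAs tested, 5.54% were called higher and 14.2% had all Ang-(1-7) libraries above. The calls are too few to compare the stretches. By arm, the 36 members of 3p arms had a median of 0.45, with 32 above 0, and the 32 tested of 5p arms had a median of 0.21, with 21 above 0. Within a hairpin the arms tended to go together. Over 32 hairpins with both arms tested, Pearson's r between the fold changes of the arms was 0.65 and Spearman's rho 0.60, both arms were above 0 in 20, both below in 2 and on opposite sides in 10. Most members were above 0, so many pairs of arms would be above 0 together in any case. The same values were not worked out for hairpins outside the cluster. Arms share their precursor and their libraries, so these are descriptions.

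The balance of the arms was then examined, since it does not depend on how much of a hairpin is made. Of the 34 hairpins with both arms, the 5p arm held over 50% of the reads in all 6 libraries in 11 and the 3p arm in 16, while 7 crossed 50%: miR-380, miR-376b, miR-544, miR-485, miR-377, miR-409 and miR-369. The hairpins miR-299a and miR-299b, whose reads cannot be told apart, are counted separately among the 34, the 16 and the 33 tested below. The more abundant arm held over 90% in all libraries in 18 of the 34, the 5p arm in 7 and the 3p arm in 11. Tested with limma on the log2 ratio of the arms over 338 hairpins of the whole table, 0 of 33 tested cluster hairpins passed an adjusted p under 0.05, as did 0% of all hairpins. At an unadjusted p under 0.05 there was 1 of the 33, against 11.2% of all hairpins.

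That 1 hairpin was miR-154, whose 5p arm held 75.8%, 73.2% and 75.2% of its reads after Ang-(1-7) against 81.7%, 84.1% and 81.4%. The groups did not overlap, and the log2 ratio of 5p to 3p differed by -0.66 (95% CI -1.28 to -0.05, unadjusted p = 0.038 and limma adjusted p = 0.415). The 5p arm, named after its values were seen, stood at 1295 ± 447 against 820 ± 91.6 normalized counts (SD, n = 3), a smaller fold than that of miR-154-3p, and did not pass (log2FC 0.61, limma adjusted p = 0.207).

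**Figure D4:**
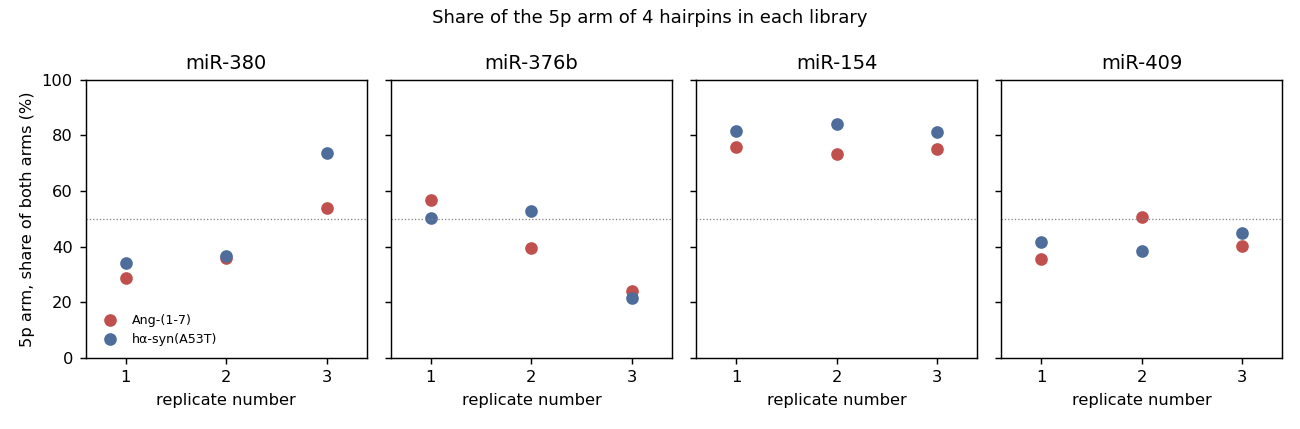
Share of the 5p arm among the reads of both arms (%, vertical axis) of 4 hairpins against the replicate number, with red points for Ang-(1-7) and blue points for hα-syn(A53T) libraries and a dotted line at 50%. miR-154 lies between 73.2% and 75.8% in the Ang-(1-7) libraries and between 81.4% and 84.1% in the others, while the libraries numbered 3 stand apart for miR-380 and miR-376b.

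Some hairpins varied far more between libraries of 1 group than between the groups, and did so alike in the libraries numbered 3. The 5p share of miR-380, whose 5p arm is known to hold back p53 in mouse and human cells, was 28.8%, 35.7% and 54.0% after Ang-(1-7) against 34.2%, 36.5% and 73.7%. The range of 44.9 percentage points was the largest in the cluster. The difference lay in miR-380-5p, at 1523, 1765 and 3934 normalized counts against 1638, 1674 and 6463, while miR-380-3p was steady at 3433 ± 302 against 2785 ± 434.2 (SD, n = 3). For miR-376b the 5p share was 56.9%, 39.4% and 24.1% against 50.4%, 52.7% and 21.3%, and here the 3p arm moved. miR-376b-3p stood at 3935, 8240 and 14953 normalized counts after Ang-(1-7) against 4208, 3426 and 11589, and miR-376b-5p at 5097 ± 322.8 against 3744 ± 570 (SD, n = 3).

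These members were singled out after their values were seen. They were the only 2 of 68 members, or 2.94%, that stood at least 0.5 on the log2 scale above the other libraries of their group in both libraries numbered 3, and 4.41% of all miRNAs tested did so. A deposited summary sheet numbers the hα-syn(A53T) libraries 2, 4 and 5 where the labels have 1, 2 and 3, so equal numbers need not mean a shared origin. By rank alone, 11 members were highest in both libraries numbered 3, 8 in both numbered 1 and 3 in both numbered 2. The same ranks were not counted over all miRNAs, so no pattern particular to the members is read from them. miR-494-3p, which carries the word UACACGG, stood at 213, 408.8 and 576 normalized counts against 218, 142 and 720, again highest in number 3 of each group. miR-10b-5p, of a Hox cluster, was high in Ang-(1-7) replicate 3 as well, at 1118, 577 and 21338 normalized counts against 6887, 48662 and 39970. The oligodendrocyte miRNA miR-219a-2-3p also stood highest in number 3 of each group, at 25940, 26958 and 54884 against 44630, 59096 and 152067 normalized counts. The other 3 of the oligodendrocyte list did not: in the aCSF group miR-219a-5p and miR-338-3p were lowest in number 3 and miR-338-5p was highest in number 2. The part of either in these members was not tested on its own. Transcripts of the miR-376 family and of miR-381 are known to be edited from adenosine to inosine in brain, and the sources used here do not say how edited reads were counted.

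The same domain holds other miRNAs outside the cluster, and a list of 33 of them gave counts of the same kind. Of 32 tested, 2 were higher with Ang-(1-7), 0 were lower and 30 did not pass. Over all miRNAs tested, 5.54% were higher and 4.04% lower, so the share of calls is close to that of all miRNAs. The median log2FC was 0.37, with 23 above 0, or 71.9%, against 47.9% of all miRNAs. For 14, or 43.8%, all 3 Ang-(1-7) libraries were above all 3 others, against 14.2% of all miRNAs. miR-431-5p was at 731 ± 113 against 330 ± 27.1 normalized counts (SD, n = 3), with a log2FC of 1.14 (limma adjusted p = 0.0167). miR-341-3p was at 28539 ± 6999 against 14906 ± 1740 normalized counts (SD, n = 3), with a log2FC of 0.92 (limma adjusted p = 0.0356). These calls fell to 0 without hα-syn(A53T) replicate 1 or 2 and with the miR-10 covariate, as did those of the cluster.

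Neuronal miRNAs are given beside the cluster, since it is known from neurons. Of 6 in the list, 3 were higher with Ang-(1-7) and 1, miR-124-3p, was lower, and the summed level ranged from 3379715 to 4649594 normalized counts after Ang-(1-7) and from 2959677 to 3330274 in the aCSF group. The log2FCs of miR-137-3p, miR-138-5p and miR-218-5p were 1.41, 1.24 and 0.78, and that of miR-124-3p was -0.89. Those of miR-128-3p and miR-9-5p were 0.66 and 0.14 and did not pass. The oligodendrocyte list, with 1 of 4 lower, ranged in sum from 35886 to 66079 against 60729 to 168387 normalized counts, and the choroid plexus list from 35963 to 38039 against 46390 to 65330. In the latter only miR-204-5p was lower, and the log2FCs of miR-34b-5p, miR-34c-5p and miR-449a-5p were 0.26, 0.10 and 0.55 and did not pass. The part of these lists in the cluster's difference was not tested.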

How the data were processed

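Small RNA was measured in 6 libraries of right SN, 3 per group by the sample labels. The signal values deposited by the authors are normalized counts, reads divided by size factors, with other size factors for the annotated miRNAs than for the predicted loci, which were left out. The submitters' processing notes name Bowtie 1.2.3, DESeq2 1.10.1 and mm9. The sources used here do not give trimming, the miRBase release or the rules of counting. Deposited fold changes and p-values of the authors' own comparison were not used.

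Groups were compared with limma 3.58.1 (R 4.3.3) with a trend on log2(normalized count + 1), two-sided, for annotated miRNAs with at least 1 in at least 3 libraries. Python 3.11.15, pandas 2.3.3 and matplotlib 3.10.9 were used for the rest, and the fit was tested on simulated data. Named members were the 12 most abundant, those passing, the 5 furthest from 0 in each direction and the arms of miR-379 and miR-410, and others are said to be chosen after their values were seen. The members and lists were chosen with earlier results of these data known. Alternatives were other pseudocounts, filters, scalings and fits, a replicate block, the miR-10 covariate and each library left out. Sequences came from RefSeq (GRCm38.p6) and gene places from GENCODE vM21.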

Additional observations from a re-analysis of the deposited data

How the results depend on the processing

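The count of members called higher, 4, was 1 after quantile normalization (miR-154-3p) and 0 with the miR-10 covariate, and it ran from 0 to 6 with 1 library left out. It was 4 or 5 under the other pseudocounts, filters, scalings, robust limma and voom. Members called lower, members past the study's thresholds and hairpins with a changed arm ratio stayed at 0 in each setting run. The median log2 fold change of the members, 0.34, ran from 0.21 (without hα-syn(A53T) replicate 2) to 0.39 with 1 library left out, and 50 to 57 members were above 0 over all 18 settings. For the other miRNAs of the domain, 2 calls became 4 with a mean of at least 10 and with robust limma, 1 after quantile normalization, 0 with the covariate and 0 to 3 with 1 library left out. Over all miRNAs, 59 higher and 43 lower calls became 13 and 9 with the covariate and 19 to 62 and 8 to 49 with 1 library left out. The causes were not tested. Of the planned fits on whole reads, which can be worked out for the annotated miRNAs, only voom was run.

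The replicate numbers were not taken to pair the libraries, and a deposited summary sheet has the numbers 2, 4 and 5 for the hα-syn(A53T) group: deviations from the group means of libraries with the same number correlated at 0.12, -0.09 and 0.18 for numbers 1, 2 and 3 over the 1065 miRNAs and at 0.25, -0.10 and 0.48 over the members, and 3 of 6 libraries correlated best with their own number. With the number as a replicate block 4 members were higher, with miR-381-3p in place of miR-154-3p, and 3 of the other miRNAs of the domain. With 3 libraries per group the 95% intervals of the members' log2 fold changes are wide, so a difference that did not pass is not shown to be absent.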
